A study of Mus musculus with 6 samples.

Results

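The genes described here are 10 members of the transforming growth factor-beta (TGF-beta) system, chosen by name, out of the 52636 genes in the deposited count table. They are 4 ligand genes (Tgfb1, Tgfb2, Tgfb3 and Inhba), 3 receptor genes (Tgfbr1, Tgfbr2 and Tgfbr3), the decoy receptor Bambi, and the binder genes Ltbp1 and Ltbp2. All 10 were found in the table by their mouse Ensembl identifiers, and all 10 were followed across the deposited cell types, the fibroblast sub-clusters and the genotypes. The cells were retinal pigment epithelium (RPE) and choroid cells, taken with papain from the eyes of male C57BL/6J mice aged 12-16 months and grown for a week in a medium made for RPE before single-cell RNA sequencing. The samples fell into 3 Dram2 wt/wt and 3 Dram2 ko/ko samples. The ko/ko mice carry a constitutive deletion of exon 4 made with CRISPR/Cas9, so all cell types are affected, and the wt/wt mice are of the same strain. Dram2 is a lysosomal membrane gene that has been tied to autophagy. Reads came from the 3′ ends of transcripts, outside the deleted exon, so the Dram2 level does not check the genotype label.

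TGF-beta ligands are made as latent dimers that stay bound to their own propeptide. Latent binding proteins such as LTBP1 link that complex to the extracellular matrix, from which integrins, proteases and thrombospondin can free it. The free ligand joins TGFBR2, which phosphorylates TGFBR1, and SMAD proteins then carry the signal to the nucleus. In the eye, the RPE is a known source of TGF-beta2, and TGF-beta is known for driving RPE cells and fibroblasts in culture towards a contractile, matrix-making state.

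The samples held 2140 to 6648 cells and 96808998 to 122746184 unique molecular identifiers (UMIs, each a counted molecule). Levels are given as CPM, the UMIs of a gene summed over the cells of 1 type in 1 sample and scaled to all UMIs of that sum, for sums of 10 or more cells. Dram2 ko/ko replicate 3 was the only sample of batch 2. The 8 deposited types ranged from Fibroblast, with 12651 cells, to Myeloid, with 84 cells and only 4 samples of 10 or more. Cells named RPE carried Krt18 at 710.3 CPM and Otx2 at 87.4 CPM, but Rpe65, Best1, Tyrp1 and Pmel, the genes of the mature pigmented epithelium, were at 0.7 CPM or less. Of 6 pericyte markers, cells named Pericyte held Cspg4 at 198.7 CPM against 37.5 CPM in Fibroblast cells, but Pdgfrb at 29.4 against 86.7 CPM and Rgs5 at 7.79 against 67.0 CPM. The 6 summed to 196 to 269 CPM in Pericyte and 155 to 231 CPM in Fibroblast sums. Kcnj8, Higd1b and Ndufa4l2 had 0 UMIs in Pericyte cells, which allows up to 0.562 CPM, and Rgs5 had 0 in 2 of the 6 samples. These cells also carried the Schwann cell genes Ngfr and Sox10 at 406.7 and 178.8 CPM. They are called Pericyte below only as the deposited name. Cells named Fibroblast-like were shallow, with a median of 4825 UMIs per cell. The 5 fibroblast markers, each detected in all these sums, summed to 1417 to 4067 CPM in Myeloid and 595 to 1775 CPM in Endothelial sums, against 3550.2 to 4725 CPM in Fibroblast sums. The share of the Fibroblast level depended on the marker, with Mgp at 60.6% and Lum at 90.3% in Myeloid, and Mgp at 24.2% and Lum at 12.1% in Endothelial cells. The part of fibroblast RNA in the levels of those small types was not tested.

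Promoter sequence from RefSeq was used for 7 of the 10 genes. The 250 bases before the annotated start (GRCm38.p6) are shown for Inhba and Ltbp2, whose mean levels were highest in Fibroblast cells, and for Tgfb2, whose level was spread widely over types and samples. Capitals mark a TATA box (TATAAA) or a SMAD element (CAGAC) on either strand. The motifs share no bases in these windows.
Inhba, chr13:16011601-16011850, plus strand: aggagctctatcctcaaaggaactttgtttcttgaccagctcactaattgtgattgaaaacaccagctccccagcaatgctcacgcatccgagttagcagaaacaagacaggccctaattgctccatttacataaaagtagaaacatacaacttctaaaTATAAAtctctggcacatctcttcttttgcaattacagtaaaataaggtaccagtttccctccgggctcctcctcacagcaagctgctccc
Tgfb2, chr1:186705990-186706239, minus strand: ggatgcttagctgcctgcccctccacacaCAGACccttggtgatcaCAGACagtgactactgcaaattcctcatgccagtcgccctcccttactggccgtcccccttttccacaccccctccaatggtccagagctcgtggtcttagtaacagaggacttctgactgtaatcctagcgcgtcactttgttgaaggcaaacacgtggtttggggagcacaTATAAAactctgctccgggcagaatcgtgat
Ltbp2, chr12:84876492-84876741, minus strand: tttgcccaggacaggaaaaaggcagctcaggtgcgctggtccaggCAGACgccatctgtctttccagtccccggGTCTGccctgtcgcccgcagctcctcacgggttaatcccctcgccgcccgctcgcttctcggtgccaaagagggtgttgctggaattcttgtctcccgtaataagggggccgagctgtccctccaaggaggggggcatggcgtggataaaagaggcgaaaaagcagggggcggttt
Inhba and Tgfb2 each held 1 TATA box, which 12.4% of 32851 such promoter windows held. Tgfb2 and Ltbp2 each held 2 SMAD elements and Inhba held 0, against a share of 42.2% of windows with at least 1. An AP-1 element (TGANTCA), found in 6.75% of windows, was in none of the promoters of the 7 genes. These matches describe letters only.

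Among the ligands, Inhba, which encodes the subunit of activin A, had its high level in Fibroblast and Fibroblast proliferating cells. In Fibroblast cells the samples ran from 546.7 to 614.5 CPM with a median of 578 CPM (mean 579.6 ± 24.2, SD, n = 6). In Fibroblast proliferating cells the mean was 528 ± 32.6 CPM, and the samples of both types overlapped. Fibroblast 2 cells, at 103 ± 14.5 CPM, were below both in every sample, at 17.8% of the Fibroblast level. RPE cells had 179 ± 64.7 CPM, Endothelial cells 127 ± 61.0 CPM and Pericyte cells 96.8 ± 81.7 CPM, and these 3 types overlapped. Myeloid cells had 359.6 ± 162 CPM over 4 samples, and the part of fibroblast RNA in this level was not tested. Cells were thinned to 5000 UMIs each, which left out 750 Dram2 wt/wt and 690 Dram2 ko/ko cells with fewer. Of the thinned cells, 81.2% of Fibroblast cells held an Inhba UMI, against 22.7% of Fibroblast 2 cells and 14.7% of Pericyte cells. Without thinning, and over all cells, these shares were 95.6%, 46.8% and 26.9%, at median depths of 26108, 18394 and 13598 UMIs. The lowest of them may hold free RNA, so no expression is read from the Pericyte share.

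Tgfb2, the ligand gene most often named in the eye, had its highest mean in Endothelial cells, which were the highest type in 5 of 6 samples. In Dram2 ko/ko replicate 3 the RPE level of 341 CPM was above every Endothelial sample. The 6 Endothelial samples ran from 238 to 299.7 CPM with a median of 269 CPM (mean 269 ± 23.4), and each lay above every Fibroblast sample. The Fibroblast samples ran from 135 to 219.8 CPM (mean 171 ± 34.6). Fibroblast 2 cells had 27.6 ± 5.77 CPM, or 16.1% of the Fibroblast level, and Fibroblast-like cells had 25.3 ± 8.08 CPM. Pericyte cells had 38.4 ± 18.3 CPM, and RPE cells 120.2 ± 121 CPM, an SD as large as the mean that is taken up below.

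Tgfb3, whose product signals through the same receptors, was at 44.0 ± 9.72 CPM in Fibroblast cells and had its lowest mean in Endothelial cells, at 5.38 ± 7.52 CPM. The Endothelial sums held 19 Tgfb3 UMIs in all. Dram2 ko/ko replicates 2 and 3 held 0 there, which allows up to 6.44 and 6.76 CPM (3 counts, counting error only). Tgfb2 and Tgfb3 thus stood at opposite ends in Endothelial cells. Tgfb1, the broadly expressed member of the family, was the flattest of the ligands, and its type means stayed between 75.5 ± 10.2 CPM in RPE cells and 179.9 ± 42.1 CPM in Myeloid cells. Every neighbouring pair in its order of 8 types overlapped. Endothelial cells came next to Myeloid cells at 168 ± 42.9 CPM, followed by Fibroblast proliferating at 147 ± 16.3 CPM and Fibroblast at 124 ± 14.8 CPM.

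**Figure D1:**
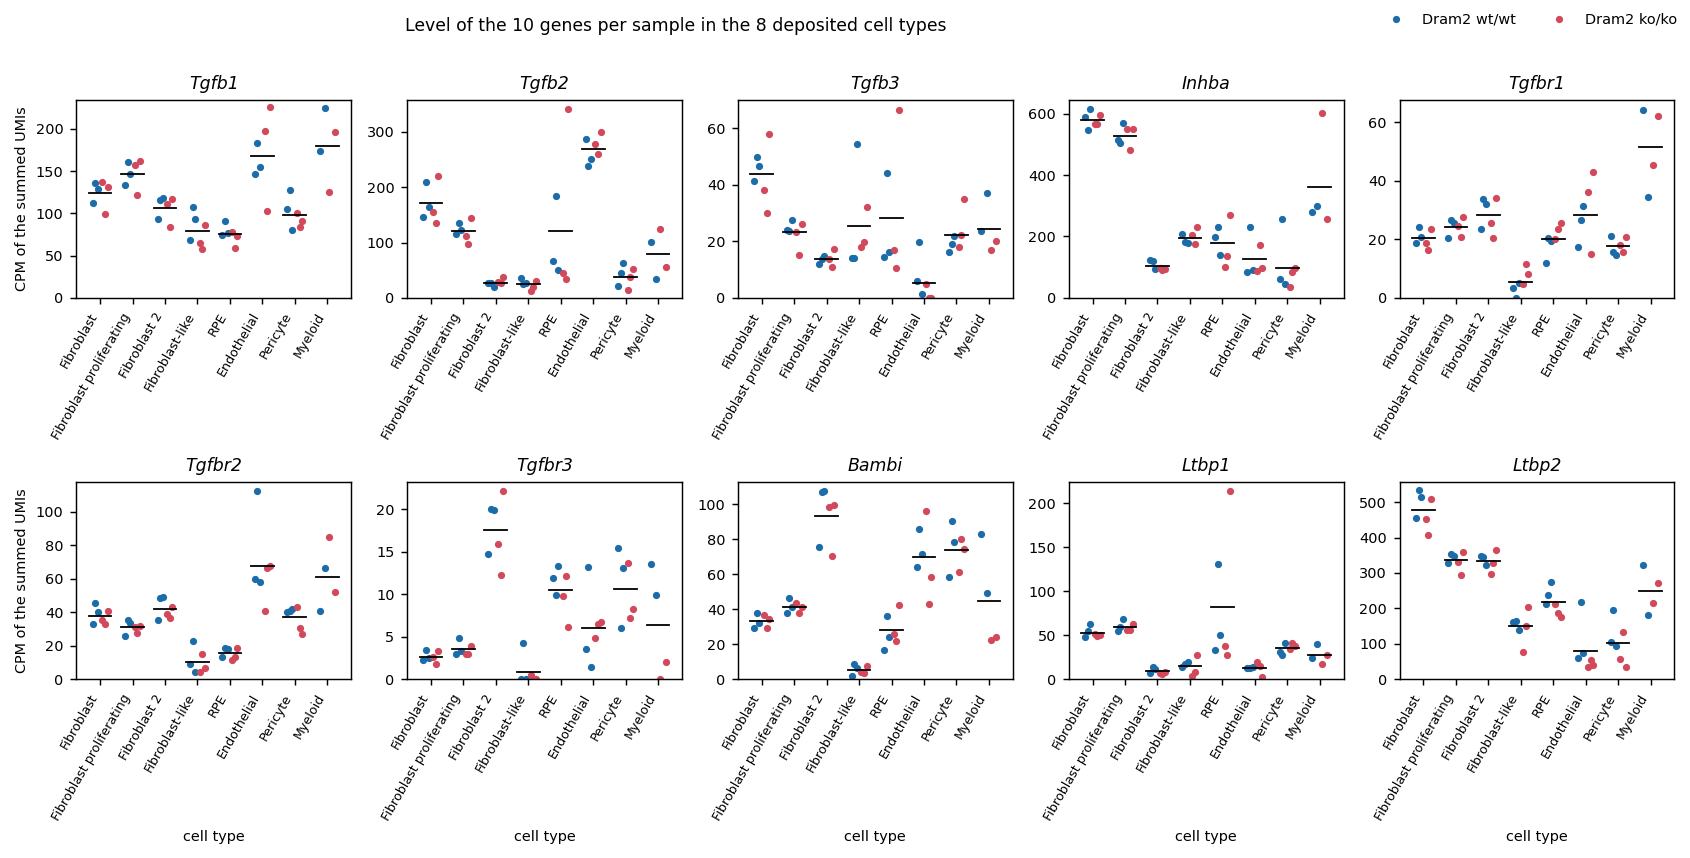
CPM of the 10 genes (y axes, linear from 0) in the 8 deposited cell types (x axes). Each point is 1 sample with 10 or more cells of that type, blue for Dram2 wt/wt and red for Dram2 ko/ko, and the line is the mean over samples. Inhba is high in Fibroblast and Fibroblast proliferating cells, Tgfb2 in Endothelial cells, and Bambi and Tgfbr3 in Fibroblast 2 cells, and 2 RPE samples stand above the other 4 in Tgfb2 and Ltbp1.

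The receptor genes had another order. Tgfbr2, the ligand-binding receptor kinase, was at 67.5 ± 24.0 CPM in Endothelial and 61.1 ± 19.2 CPM in Myeloid cells, which overlapped. The 3 large fibroblast types had 30.9 to 41.9 CPM. In RPE cells Tgfbr2 was at 15.6 ± 3.30 CPM, with a highest sample of 18.8 CPM against a lowest sample of 25.8 CPM in Fibroblast proliferating cells. Tgfbr1, the kinase that phosphorylates SMADs, was at 51.6 ± 14.2 CPM in Myeloid cells, where the 4 samples had 64.3, 34.5, 45.4 and 62.1 CPM, all above the highest Fibroblast 2 sample of 34.1 CPM. That mean rested on 91 UMIs. In the other types outside Fibroblast-like the Tgfbr1 means lay between 17.7 and 28.3 CPM, with overlapping neighbours.

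Tgfbr3 (betaglycan), a co-receptor that presents TGF-beta2 to the kinases, and Bambi, a pseudoreceptor without a kinase that dampens the signal, shared their highest type. In Fibroblast 2 cells Tgfbr3 ran from 12.2 to 22.1 CPM with a median of 17.9 CPM (mean 17.5 ± 3.79), which was 669% of the Fibroblast level of 2.61 ± 0.630 CPM, and no sample overlapped. Pericyte and RPE cells followed at 10.6 ± 3.91 and 10.5 ± 2.52 CPM. Their highest samples, at 15.4 and 13.3 CPM, overlapped with Fibroblast 2. Bambi ran in Fibroblast 2 cells from 70.5 to 107.8 CPM with a median of 99.2 CPM (mean 93.3 ± 16.1), or 279% of the Fibroblast level of 33.4 ± 3.81 CPM. Pericyte cells had 73.9 ± 12.1 CPM and Endothelial cells 69.9 ± 19.2 CPM of Bambi, and both overlapped with Fibroblast 2. Fibroblast-like cells had 5.25 ± 2.58 CPM. Against Fibroblast cells, Fibroblast 2 cells thus held less Inhba, Tgfb2 and Ltbp1 and more Tgfbr3 and Bambi. Thinned to 5000 UMIs, 7.98% of Fibroblast 2 cells held a Tgfbr3 UMI against 1.24% of Fibroblast cells, and 27.4% held a Bambi UMI against 14.2%. Without thinning the Tgfbr3 shares were 27.1% and 6.48%, and the Bambi shares 57.0% and 48.6%.

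Of the binders, Ltbp2, a matrix protein of the latent binder family that does not itself hold the latent ligand, was highest in Fibroblast cells in 6 of 6 samples. Those samples ran from 408 to 533 CPM with a median of 482 CPM (mean 479 ± 47.7), above every Fibroblast proliferating sample (mean 336 ± 23.6 CPM). Fibroblast 2 cells, in contrast to Inhba, stayed close to that at 335 ± 23.5 CPM. RPE cells had 217 ± 35.1 CPM and Endothelial cells 79.6 ± 69.3 CPM. Ltbp1, which links latent TGF-beta to the matrix, was at 52.8 ± 5.39 CPM in Fibroblast and 59.5 ± 5.37 CPM in Fibroblast proliferating cells. Its Fibroblast 2 level was 8.92 ± 3.02 CPM, or 16.9% of the Fibroblast level. Its mean was highest in RPE cells at 82.0 ± 75.1 CPM, though RPE was the highest type in only 2 samples. No test across cell types is given, since the types were clustered from these counts.

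Fibroblast sub-clusters split the fibroblasts further, again as a description. In sub-cluster 4, of which 99.0% were Fibroblast cells, Tgfb1 ran from 194 to 311.8 CPM with a median of 249 CPM (mean 243 ± 42.6), above every sample of each other sub-cluster. Inhba was 313.9 ± 26.5 CPM there against 640.6 ± 25.1 CPM in sub-cluster 1, which was 97.6% Fibroblast, and no sample overlapped. Tgfb2 was at 74.2 ± 17.7 CPM in sub-cluster 4 and at 178 ± 38.3 CPM in sub-cluster 1. Both sub-clusters carried all 3 ligand genes, with more Tgfb1 and less Inhba and Tgfb2 in sub-cluster 4.

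Sub-cluster 7, with 214 cells, had the highest Tgfb2 of the sub-clusters. Its Tgfb2 samples were 323, 536 and 346.5 CPM in Dram2 wt/wt and 611, 269.97 and 566 CPM in Dram2 ko/ko (mean 442 ± 145), and its Tgfb3 mean was 92.9 ± 35.7 CPM. Samples of sub-clusters 6 and 7 overlapped for both genes. In sub-cluster 6 Ltbp2 reached 1272 ± 207 CPM, with all samples between 1002 and 1514 CPM and above every sample of every other sub-cluster. Ltbp1 was at 98.8 ± 19.7 CPM and Tgfbr1 at 46.8 ± 10.2 CPM there. The 477 cells of sub-cluster 6 had a median of 21.0% mitochondrial UMIs and 4766 UMIs per cell, and the part of this in these levels was not tested. Sub-cluster 3, of which 78.2% were Fibroblast 2 cells, carried Bambi at 78.8 ± 12.5 CPM and Tgfbr3 at 14.6 ± 2.89 CPM. Sub-cluster 8 had a median of 91.1% mitochondrial UMIs and is not described.

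**Figure D2:**
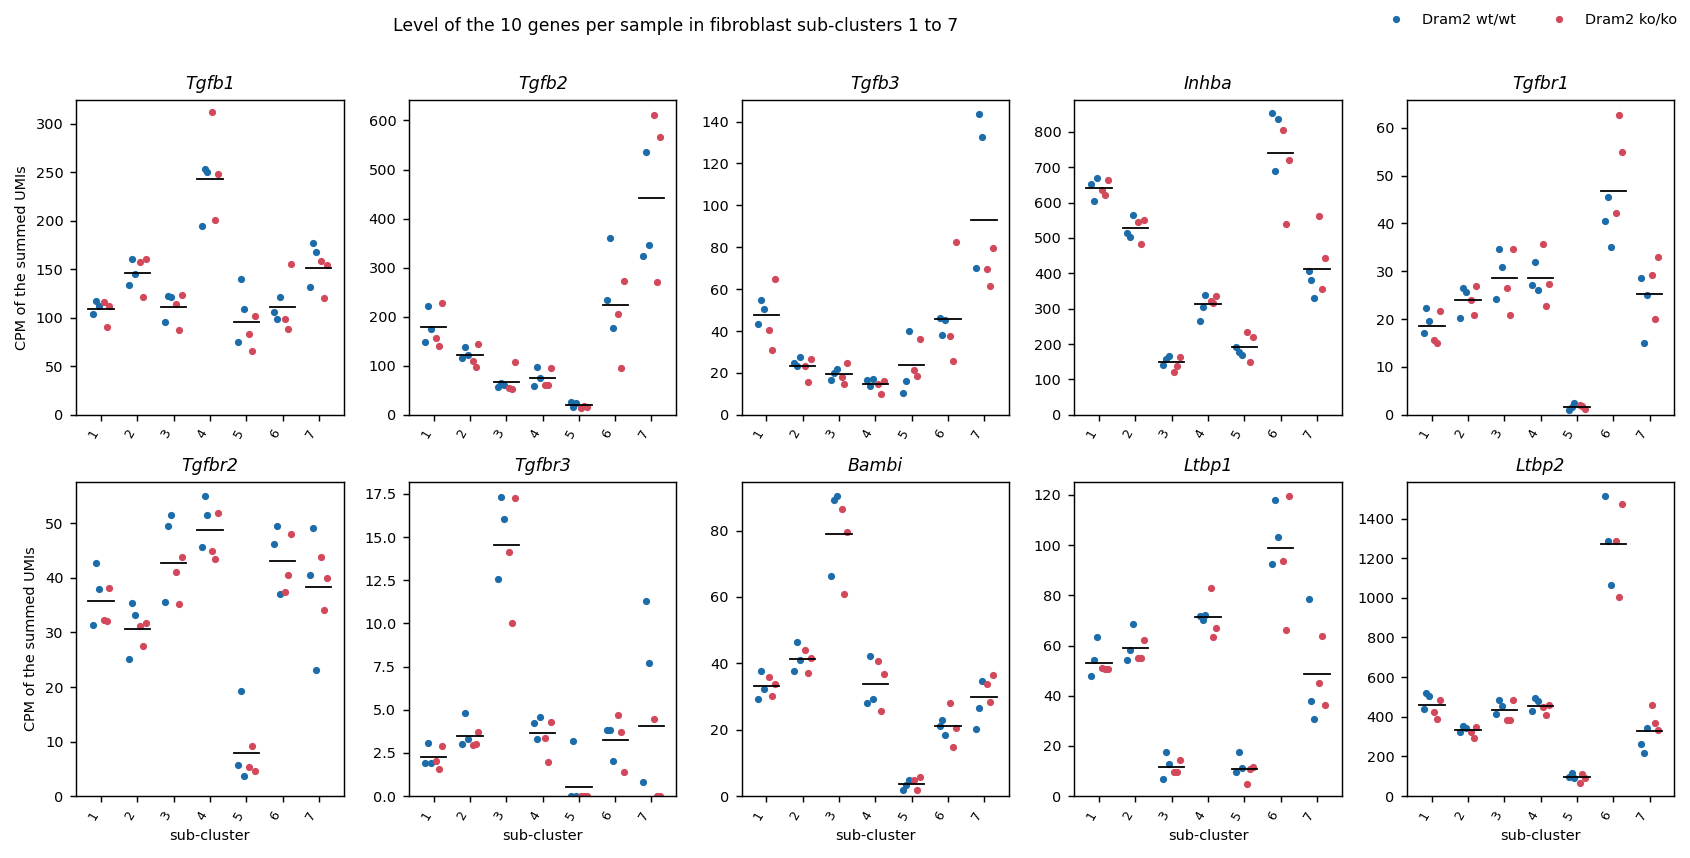
CPM of the 10 genes (y axes, linear from 0) in fibroblast sub-clusters 1 to 7 (x axes). Points are samples, blue for Dram2 wt/wt and red for Dram2 ko/ko, and lines are means over the 6 samples. Ltbp2 in sub-cluster 6, at 1002 to 1514 CPM, and Tgfb1 in sub-cluster 4, at 194 to 311.8 CPM, lie above the other sub-clusters.

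In RPE cells the samples of 1 genotype lay far apart. Tgfb2 there was 67.1, 185 and 49.6 CPM in Dram2 wt/wt replicates 1, 2 and 3, and 44.2, 34.8 and 341 CPM in Dram2 ko/ko. Ltbp1 was 32.8, 131 and 50.0 CPM in Dram2 wt/wt and 37.2, 27.4 and 214 CPM in Dram2 ko/ko. The same 2 samples, wt/wt replicate 2 and ko/ko replicate 3, were high in both genes and in Tgfb3, which they held at 44.2 and 66.6 CPM against 10.7 to 16.8 CPM in the other samples. Inhba followed with 230.7 and 269.9 CPM against 99.0 to 198 CPM. Tgfb1 was at 91.3 and 73.4 CPM in them and at 59.4 to 78.3 CPM in the others, and Tgfbr2 at 18.6 and 18.8 CPM against 11.2 to 18.3 CPM. Bambi was also higher in both, at 36.2 and 42.5 CPM against 16.9 to 25.6 CPM. Tgfbr1, at 20.6 and 25.5 CPM against 11.9 to 23.7 CPM, overlapped. So did Tgfbr3, at 9.85 and 6.16 CPM against 9.83 to 13.3 CPM, and Ltbp2, at 239 and 177 CPM against 187 to 273 CPM. The 2 samples held 539 and 575 RPE cells against 56 to 152 in the others. The 8 RPE markers together were at 499 and 293 CPM in the 2 samples and at 859.8 to 1097 CPM in the others. Krt18 made up most of each sum, at 420.3 and 231 CPM against 739 to 976 CPM. Otx2 was at 71.6 and 57.5 CPM against 84.0 to 104 CPM. Best1 was at 0 in 3 of the 6 samples. The 5 proliferation markers summed to 591 and 900.4 CPM against 124 to 259 CPM. The 5 fibroblast markers, all detected in each sample, summed to 909.9 and 373 CPM against 229.9 to 525 CPM, so only wt/wt replicate 2 was above the others. The part of cell number, cycling or marker loss in these levels was not tested.

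In the 3 samples with 100 or more RPE cells of 5000 UMIs or more, each cell thinned to 5000 UMIs, Ltbp1 was found more often in cells with a Tgfb2 UMI than in cells without. In wt/wt replicate 2, 51.8% of the 197 cells with a Tgfb2 UMI held an Ltbp1 UMI, against 27.6% of the cells without. The shares were 65.6% and 50.8% in ko/ko replicate 3, and 28.6% and 13.8% in wt/wt replicate 3, where only 21 cells held Tgfb2. Tgfb3 was in 27.4% of cells with Tgfb2 and 13.2% of cells without in wt/wt replicate 2, in 29.0% and 10.7% in ko/ko replicate 3, and in 4.76% and 4.88% in wt/wt replicate 3. Inhba was in 63.5% and 47.8% in wt/wt replicate 2, in 56.9% and 45.5% in ko/ko replicate 3, and in 47.6% and 30.1% in wt/wt replicate 3. In Fibroblast cells, pooled over all samples, Ltbp1 was less frequent with Tgfb2, at 19.4% against 22.9%. Tgfb3 and Inhba were more frequent there with Tgfb2, at 21.0% against 10.7% and at 86.1% against 77.3%. These are counts of cells, given without a test. Fibroblast cells of the same samples also had the highest Tgfb2, at 208.5 CPM in wt/wt replicate 2 and 219.8 CPM in ko/ko replicate 3, against 135 to 164 CPM.

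**Figure D3:**
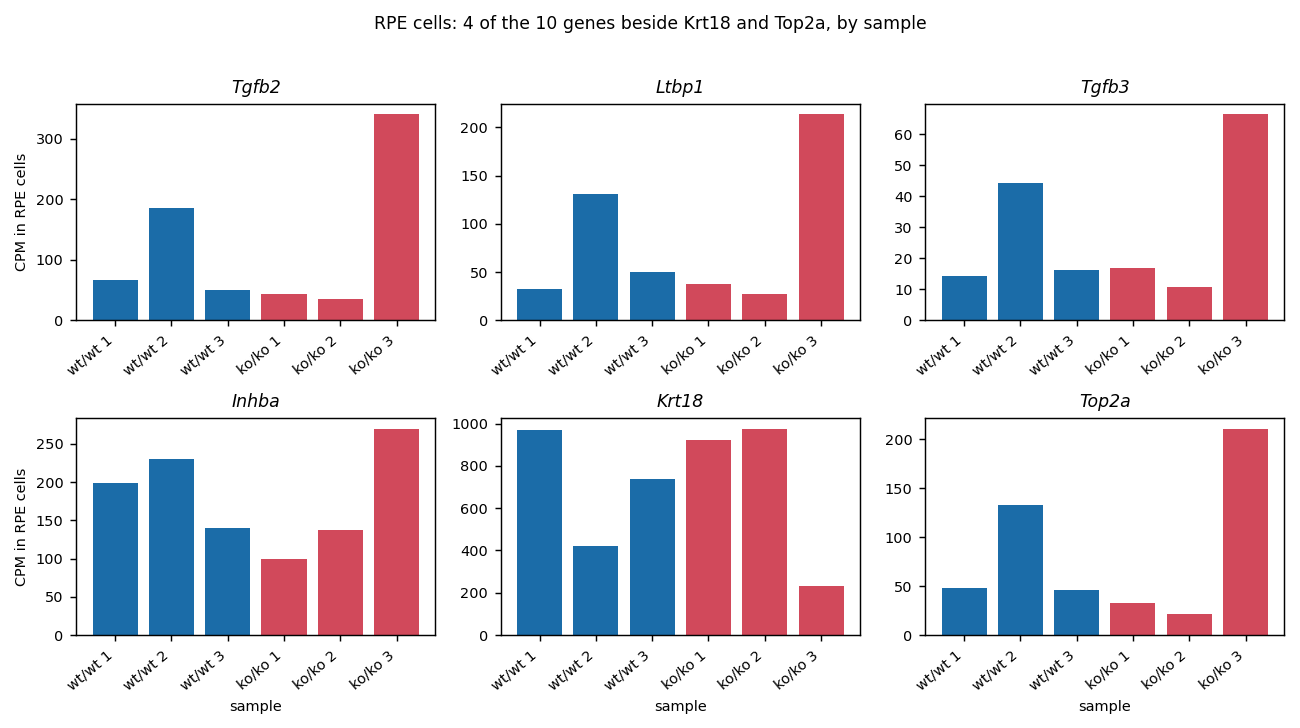
CPM in RPE cells (y axes, from 0) of Tgfb2, Ltbp1, Tgfb3, Inhba, Krt18 and Top2a in each of the 6 samples (x axes), blue for Dram2 wt/wt and red for Dram2 ko/ko. In wt/wt 2 and ko/ko 3, Tgfb2, Ltbp1, Tgfb3 and the mitotic gene Top2a are high and the epithelial keratin Krt18 is low.

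Across the 46 sums of a type in a sample, Bambi varied with the receptor genes. Pearson's r of log2(CPM + 1) was 0.74 between Bambi and Tgfbr2, 0.73 between Bambi and Tgfbr3 and 0.66 between Bambi and Tgfbr1. The shallow Fibroblast-like cells had the lowest mean of each of these genes. Those means were 5.25 CPM for Bambi, 5.55 for Tgfbr1, 10.2 for Tgfbr2 and 0.793 for Tgfbr3. The part of that type in these r values was not tested. Among ligands and binders, Inhba with Ltbp2 had 0.64 and Tgfb3 with Ltbp1 had 0.61. Inhba against Tgfbr3 was the lowest pair, at -0.48. Of 9032 genes with a mean of 10 CPM or more, Fn1 (fibronectin) was most like Tgfb2 at 0.91, and Thbs1 was at 0.85. Ltbp1 was most like Hmga2, a chromatin gene of growing and mesenchymal cells, at 0.89. For Bambi, Retreg2 and Fosl2 led at 0.94 and 0.92, and for Ltbp2, Plxdc2 led at 0.90. For Inhba, Galnt18 led at 0.90, and for Tgfbr2, Ggta1 led at 0.90. Sums of 1 type or 1 library share cells and depth, so these r values are descriptions.

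**Figure D4:**
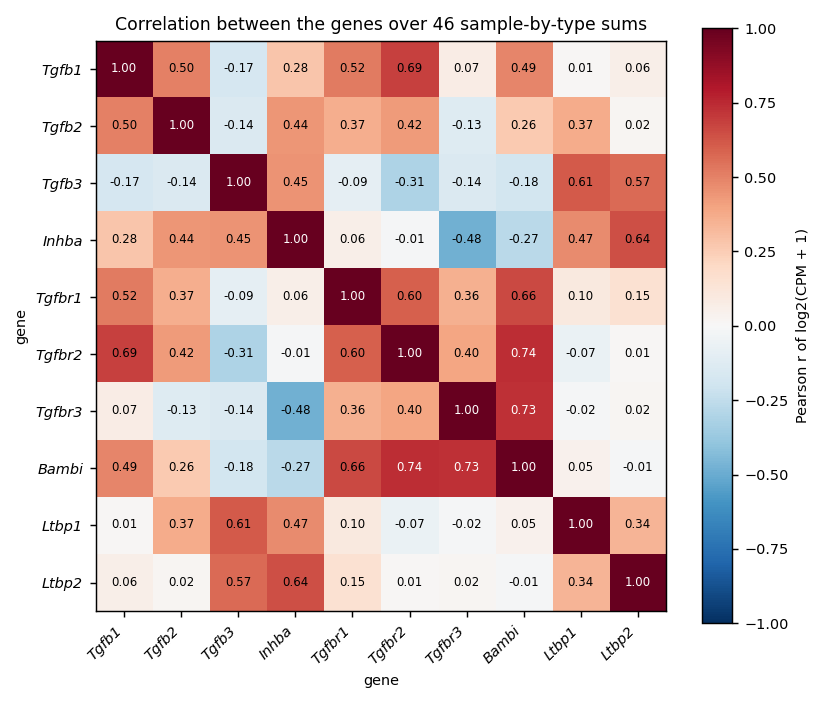
Pearson's r of log2(CPM + 1) between each pair of the 10 genes (both axes), over 46 sums of a cell type in a sample, from -1 (blue) to 1 (red). Bambi is at 0.66 to 0.74 with each of the 3 receptor genes, and Inhba against Tgfbr3, at -0.48, is the lowest pair.

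The genotype comparison asked whether Dram2 loss changed these genes. Over whole samples, 0 of the 10 genes passed an adjusted p under 0.05 in voom-limma, where 0.0% of 22580 genes did. The count was also 0 at an unadjusted p under 0.05, where 7.01% of all genes passed. By the edgeR quasi-likelihood test 0 members and 0 genes were called, and by DESeq2 0 members and 378 genes. The samples of both genotypes overlapped for all 10 genes, where 11.5% of all genes did not overlap. The median log2 fold change (Dram2 ko/ko over Dram2 wt/wt) was -0.05 over the 10 genes and 0.00 over all genes tested. Fewer cells of a type and less RNA per cell cannot be told apart in these whole-sample sums. Nothing in the labels says that the samples of a genotype came from separate animals, so p-values measure the spread between these samples, which may be technical.

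Among the ligands, Tgfb1 was 115, 137 and 130.3 CPM in Dram2 wt/wt, and 135, 103 and 129 CPM in samples of the other genotype (log2 fold change -0.05, 95% interval -0.30 to 0.20, adjusted p 0.96). Tgfb2 was 120.2, 172 and 139 CPM against 117, 107 and 201 CPM (-0.05, interval -0.57 to 0.47). Its highest and lowest samples were both Dram2 ko/ko. Tgfb3 was 31.6, 38.9 and 38.4 CPM against 29.0, 22.4 and 47.2 CPM, with a log2 fold change of -0.19 and an interval of -0.71 to 0.34. The Dram2 ko/ko spread again enclosed the Dram2 wt/wt samples. Inhba was 487, 470.2 and 544.5 CPM against 463, 459.7 and 485 CPM, a log2 fold change of -0.07 with an interval of -0.27 to 0.13.

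For the receptors, Tgfbr1 was 19.6, 25.1 and 22.6 CPM in Dram2 wt/wt and 21.3, 18.3 and 25.8 CPM in Dram2 ko/ko, a log2 fold change of -0.03 with an interval of -0.34 to 0.28. Tgfbr2 was 31.1, 39.98 and 38.1 CPM against 33.3, 31.6 and 35.1 CPM, with -0.10 and an interval of -0.34 to 0.14. Both kinases overlapped between the genotypes. Tgfbr3 was 4.35, 5.56 and 4.13 CPM against 4.97, 3.79 and 5.37 CPM (0.02, interval -0.36 to 0.40). Bambi was 37.5, 45.1 and 38.8 CPM against 47.7, 37.7 and 42.7 CPM (0.09, interval -0.14 to 0.32). Neither gene had all samples of 1 genotype on 1 side. Ltbp1 was 43.6, 60.6 and 59.96 CPM against 44.0, 44.3 and 74.3 CPM (-0.03, interval -0.51 to 0.46). Ltbp2 was 392, 433 and 443 CPM against 376.5, 353 and 402 CPM (-0.15, interval -0.34 to 0.04). Of the 10 genes, Ltbp2 had the lowest adjusted p, 0.88.

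Without Dram2 ko/ko replicate 3, which leaves batch 1 alone, the log2 fold changes of the 10 genes ran from -0.48 for Tgfb3 to 0.10 for Bambi, with a median of -0.14. The lowest adjusted p was then 0.19, again for Tgfb3, and its unadjusted p was 0.0052. Tgfb2 was at -0.32 with an unadjusted p of 0.041 and an adjusted p of 0.44. These 2 of 10 members stand beside 10.7% of 23070 genes at an unadjusted p under 0.05. No gene of the 10 was called within batch 1, where 117 of all genes were.

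**Figure D5:**
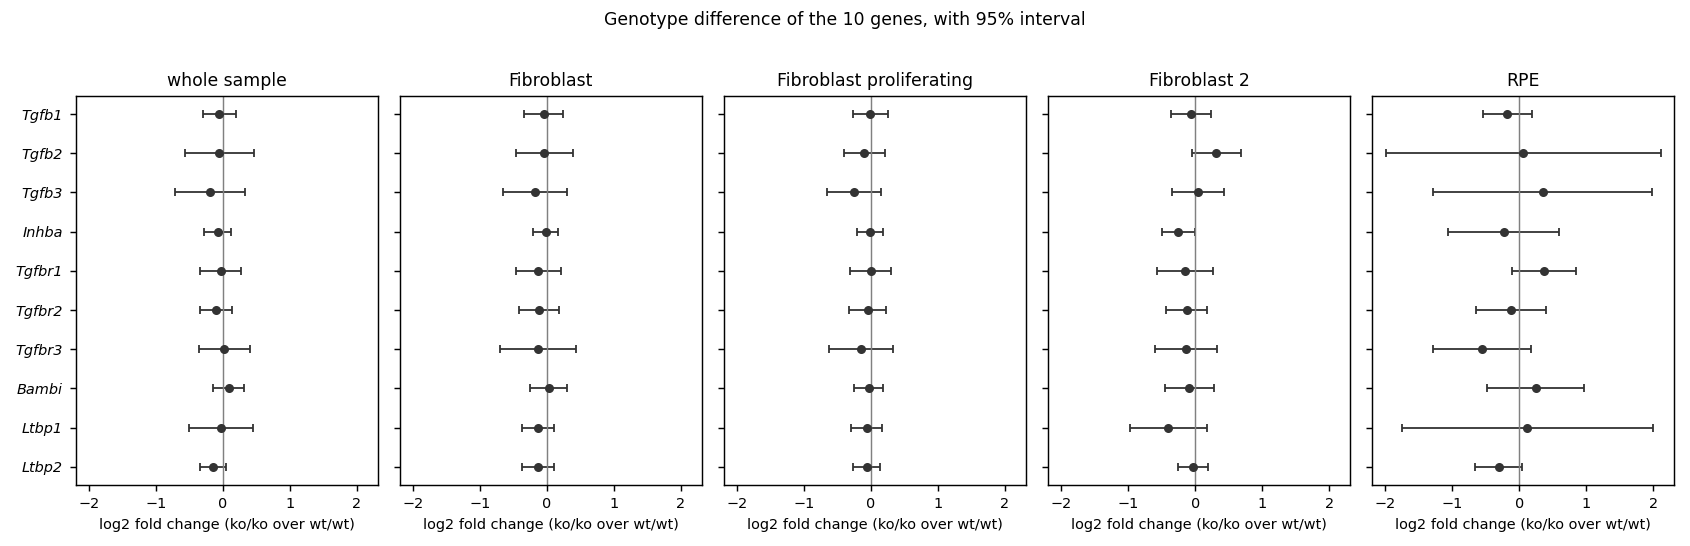
Log2 fold change (x axes, Dram2 ko/ko over Dram2 wt/wt, voom-limma) of the 10 genes (y axis) over whole samples and in 4 cell types. Points are estimates and bars 95% intervals. All whole-sample intervals include 0, and the RPE intervals of Tgfb2, from -1.99 to 2.11, and Ltbp1 are the widest.

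Within cell types, 0 of the tested members passed in any type by voom-limma, and 0 by the edgeR quasi-likelihood test or DESeq2. The shares of all genes called were 0.00503% in Fibroblast, 0.624% in Fibroblast proliferating, 0.222% in Fibroblast 2, 0.0118% in Pericyte, 0.0296% in Myeloid, and 0.0% in RPE, Endothelial and Fibroblast-like cells. In Fibroblast cells the 10 log2 fold changes ran from -0.18 to 0.02 (median -0.12, all genes -0.01), and in Fibroblast proliferating cells from -0.26 to 0.00 (median -0.06, all genes -0.01). In Fibroblast 2 they ran from -0.40 to 0.31. At an unadjusted p under 0.05 there was 1 member each in Fibroblast 2, Endothelial and Myeloid cells, where 6.2%, 5.24% and 5.94% of all genes passed. The count was 0 in Fibroblast, Fibroblast proliferating, Fibroblast-like, RPE and Pericyte cells, where 7.18%, 6.79%, 5.08%, 4.65% and 5.9% did. The Fibroblast 2 member was Inhba, at -0.25 with an unadjusted p of 0.044 and an adjusted p of 0.78. Its samples overlapped, with 123.8, 119 and 95.4 CPM in Dram2 wt/wt and 97.1, 90.5 and 92.7 CPM in Dram2 ko/ko. In RPE cells the range was -0.56 to 0.37, and the Tgfb2 interval of -1.99 to 2.11 does not exclude changes within those bounds. Without Dram2 ko/ko replicate 3, the only batch 2 sample, 5 of the 10 RPE log2 fold changes changed sign, and the range became -1.06 to 0.30 with a median of -0.33. Tgfb2 was then at -1.06 ± 0.49 (SE, unadjusted p 0.059), Ltbp1 at -0.91 and Inhba at -0.62 (unadjusted p 0.026), and the lowest adjusted p of the 10 was 0.59.

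The unadjusted counts depended on Dram2 ko/ko replicate 3. Without it, which leaves batch 1, an unadjusted p under 0.05 was reached by 1 member in Fibroblast (Tgfb3, at -0.42 with an adjusted p of 0.20), 2 in Fibroblast proliferating (Tgfb3 at -0.40 and Tgfb2 at -0.24), 3 in Fibroblast-like (Ltbp1 at -1.88, Tgfb2 at -0.99 and Ltbp2 at -0.63) and 1 in RPE cells (Inhba). The shares of all genes were 10.7%, 9.36%, 8.45% and 8.32%. Only 7 members were tested in Fibroblast-like cells, against 10 in Fibroblast, Fibroblast proliferating and RPE cells. The Fibroblast-like mean of Ltbp1 was 15.0 CPM. In Fibroblast 2, Endothelial and Pericyte cells the count was then 0, against 8.79%, 5.39% and 8.34%. Myeloid cells are left out of this count, since 1 Dram2 ko/ko sum of 11 cells remained. Their log2 fold changes then ran from -1.39 for Bambi to 1.07 for Inhba, with Tgfb2 at 0.99. None of the members was called at an adjusted p under 0.05 in these fits.

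Members with samples that did not overlap were counted next. These were 1 of 10 in Fibroblast 2 (Tgfb2), 1 of 10 in RPE (Ltbp2), 1 of 7 in Endothelial (Ltbp2) and 2 of 9 in Myeloid (Bambi and Tgfb3), against 11.4%, 7.57%, 10.5% and 33.7% of all genes in those types. In Fibroblast, Fibroblast proliferating, Fibroblast-like and Pericyte cells the count was 0, against 11.6%, 11.3%, 8.4% and 10.7%. With so few members these counts are not a result beyond the background, and 2 of these differences exceeded 0.5 on the log2 scale. Ltbp2 in Endothelial cells was 58.8, 218 and 73.1 CPM in Dram2 wt/wt and 33.6, 53.6 and 40.6 CPM in Dram2 ko/ko, which is -1.04 ± 0.46 (SE) on the log2 scale, with an adjusted p of 0.94. It rested on 14 to 99 UMIs a sample. The 5 fibroblast markers together were at 595 to 1775 CPM in the Dram2 wt/wt and 737 to 1124 CPM in the Dram2 ko/ko Endothelial sums, all 5 detected in each, with the highest in wt/wt replicate 2. Without that sample the log2 fold change was -0.56. Bambi in Myeloid cells was 82.9 and 49.3 CPM in Dram2 wt/wt replicates 2 and 3 and 22.7 and 24.0 CPM in Dram2 ko/ko replicates 2 and 3, or -1.38 ± 0.46 on the log2 scale with an adjusted p of 0.58, on 49, 20, 4 and 12 UMIs. The 5 fibroblast markers summed to 1417 to 4067 CPM in those Dram2 wt/wt sums and 1905 to 3482 CPM in the Dram2 ko/ko sums, and their part was not tested. It passed only without Dram2 wt/wt replicate 3, at -1.69 with an adjusted p of 0.041. That fit leaves 1 Dram2 wt/wt sample, assumed to vary like the others.

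In the sub-clusters, 0 members were called in any of sub-clusters 1 to 7, and the number tested ran from 5 to 10. The share of all genes called was 0.32% in sub-cluster 1, 0.55% in sub-cluster 2, 0.00634% in sub-cluster 3, 0.722% in sub-cluster 4, 0.402% in sub-cluster 7 and 0.0% in sub-clusters 5 and 6. At an unadjusted p under 0.05 there was 1 of 9 members in sub-cluster 7, against 7.22% of all genes. The count was 0 in sub-clusters 1 to 6, against 7.21%, 6.83%, 5.38%, 6.54%, 7.48% and 4.63%. No member had samples that did not overlap, against 11.5%, 11.6%, 10.1%, 11.1%, 13.9%, 9.39% and 12.3% of all genes in sub-clusters 1 to 7. These counts also depended on Dram2 ko/ko replicate 3. Without it, an unadjusted p under 0.05 was reached by 3 members in sub-cluster 1 (Tgfb3 at -0.47, Tgfbr1 at -0.34 and Ltbp2 at -0.25), 2 in sub-cluster 2 (Tgfb3 at -0.40 and Tgfb2 at -0.26), 1 in sub-cluster 6 (Tgfb2 at -0.72) and 2 in sub-cluster 7 (Ltbp2 at 0.63 and Tgfb3 at -0.59), against 11.1%, 9.7%, 6.59% and 6.92% of all genes. In sub-clusters 3, 4 and 5 the count stayed at 0, against 8.68%, 8.15% and 8.33%. The lowest adjusted p of a member in these fits was 0.18, for Tgfb3 in sub-cluster 1. In sub-cluster 7 the log2 fold changes ran from -0.52 to 0.51, and Ltbp2, at 0.51 with an adjusted p of 0.47, had the lowest p. No member was tested in sub-cluster 8, where 110 genes passed the filter, and sub-cluster 9 had too few samples.

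The interaction terms asked whether the genotype difference in Fibroblast cells differed from that in another type. Each term is the log2 fold change in the other type minus that in Fibroblast cells. A positive term thus means a higher log2 fold change in the other type. For Fibroblast against RPE, 0 of 10 members and 0.0% of 19951 genes passed (unadjusted p under 0.05 for 1 member, Tgfbr1, and for 1.86% of genes). For Fibroblast against Fibroblast 2, 0 of 10 members and 0.0% of 18959 genes passed, with an unadjusted p under 0.05 for Tgfb2, Tgfb3 and Inhba, or 3 members, against 5.13% of all genes. Those 3 terms were 0.35, 0.26 and -0.22, with an adjusted p of 0.93 each. Among the samples left out, Tgfb2 passed only without Dram2 wt/wt replicate 1, at 0.63 with an adjusted p of 0.037. Without Dram2 ko/ko replicate 3, 6 of the 10 terms against RPE changed sign and they ran from -1.06 to 0.60, with an unadjusted p under 0.05 for Tgfbr1 and Inhba, against 6.11% of all genes. Against Fibroblast 2, 3 of the 10 changed sign, and Tgfb3 and Tgfb2 were under 0.05 while Inhba was at 0.061, against 5.73% of all genes.

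The rest of the pathway was read from 6 lists, of which 77 genes were tested over whole samples. None rose or fell at an adjusted p under 0.05 (2 genes at an unadjusted p under 0.05, or 2.6%, against 7.01% of all genes). Of the other ligands and latency proteins, 15 of 17 were tested with a median log2 fold change of -0.05. They ran from -0.36 to 1.29, with 1 gene at an unadjusted p under 0.05 and a lowest adjusted p of 0.71. The most abundant were Fbn1 at -0.17, Lrrc32 at 0.08, Gdf15 at 0.04 and Ltbp3 at -0.05. Of the other receptors and co-receptors, 10 of 11 were tested with a median of -0.03, and Eng was at -0.10, Acvrl1 at -0.04, Bmpr2 at -0.07 and Bmpr1a at -0.01. All 14 SMADs and their regulators were tested with a median of 0.03, and Smad7, the inhibitory SMAD, was at 0.07, Smurf2 at 0.06, Tgif1 at 0.11 and Smad4 at 0.05. The 10 extracellular inhibitors had a median of 0.05. Grem1, a secreted antagonist of bone morphogenetic proteins, was at 0.33 with an unadjusted p of 0.025 and an adjusted p of 0.53, while Fst, which binds activin, was at 0.14, Nog at -0.02 and Nbl1 at 0.02. The 12 activators of latent TGF-beta had a median of 0.01, with Thbs1 at -0.16, Itgb1 at 0.03, Itgav at -0.06 and Itgb5 at -0.05. The 16 TGF-beta response genes had a median of -0.07 and ran from -0.23 for Fn1 to 0.15 for Tagln. Of the most abundant ones, Acta2 (smooth muscle actin) was at 0.07 and Ccn2 at 0.08, both on the positive side of a list with a negative median. In the 8 cell types and sub-clusters 1 to 8, no gene of these lists was called, and the lowest adjusted p was 0.073, for Col3a1 in sub-cluster 5 at -1.40. At an unadjusted p under 0.05 there were 10 of 39 list genes in sub-cluster 5 (25.6%, against 7.48% of all genes), 9 of 57 in sub-cluster 7 (15.8%, against 7.22%) and 6 of 53 in Pericyte cells (11.3%, against 5.9%). All of these but Smurf1 were lower in Dram2 ko/ko in sub-cluster 5. In sub-cluster 7 all were higher, and in Pericyte cells all were lower. In the other types and sub-clusters the share ran from 0.0% to 7.25%, and it was above that of all genes in Fibroblast-like (6.52%, against 5.08%), Myeloid (6.25%, against 5.94%), sub-cluster 4 (7.25%, against 6.54%) and sub-cluster 6 (5.66%, against 4.63%). It was below in Fibroblast (1.33%, against 7.18%), Fibroblast proliferating (2.67%, against 6.79%), Fibroblast 2 (4.41%, against 6.2%), RPE (1.52%, against 4.65%), Endothelial (4.26%, against 5.24%), sub-cluster 1 (2.7%, against 7.21%), sub-cluster 2 (2.67%, against 6.83%), sub-cluster 3 (0.0%, against 5.38%) and sub-cluster 8 (0.0%, against 3.64%). In Pericyte sums the 5 fibroblast markers summed to 2079 to 2642 CPM in Dram2 wt/wt and 1768 to 1916 CPM in Dram2 ko/ko. Mgp, Dcn, Pdgfra and Lum had means of only 271, 51.8, 6.36 and 2.61 CPM there. Most of each sum thus came from the remaining marker, and the sums do not measure fibroblast RNA in these cells. Of these markers, Mgp overlapped between the genotypes there, at 137, 634 and 157 CPM against 52.2, 484 and 161 CPM. Lum had 0 UMIs in Dram2 ko/ko replicates 1 and 3. The part of fibroblast RNA in the Pericyte values was not tested. Sub-cluster 5 was 94.0% Fibroblast-like cells, with a median of 5856 UMIs per cell, and sub-cluster 7 sums held 13 to 79 cells. The effect of leaving out Dram2 ko/ko replicate 3 on these pathway counts is not given.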

How the data were processed

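UMI counts per gene and cell were made by the authors with Cell Ranger 3.1.0 (submitters' processing notes) against mm10, exons only, and deposited as raw counts of 52636 genes in 25428 cells. The authors' cell types came from Seurat clusters integrated across batches. Filters on cells are not given in the sources used here. Identifiers were matched to GENCODE M21 (52489 with a symbol). Deposited cell names carry no barcodes, so barcodes shared between libraries could not be counted, and doublets were not called here.

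Counts were added up per sample and cell type, keeping sums of at least 10 cells. Genotypes were compared, with 2 or more samples each (1 in some Myeloid fits with a sample left out), by voom-limma (limma 3.58.1, edgeR 4.0.16 for filterByExpr and TMM, R 4.3.3) without covariates. The study also used voom-limma, but with scran's logNormCounts and a fold-change minimum for its calls, neither of which was used here. P-values were adjusted by Benjamini-Hochberg over all genes of a comparison. An exact permutation test of 3 samples against 3 cannot go below 0.1 and was not used. The fit was tested on simulated data with known changes. Interaction terms were fitted with the sample as a factor. The members and lists were chosen with earlier results of these data known. In types, members are named with values where called, or where samples did not overlap and the log2 fold change reached 0.5 in size. Pathway genes are named where they met this over whole samples, and otherwise up to 4 a list with the highest whole-sample CPM. Fibroblast 2 Inhba, sub-cluster 7 Ltbp2, the members named within batch 1, Fn1, Col3a1, Smurf1, the interaction genes, Fibroblast 2 Tgfb2, RPE Ltbp2 and Myeloid Tgfb3 were named after their values were seen. Where 3′ sequence was compared, at most 6.50% of a member's 31-base words also occurred in other genes (Ltbp1). Alternatives were DESeq2 1.42.0, the edgeR quasi-likelihood test, other scalings, no filter, 2 cell filters, the batch, the replicate block and each sample left out. Some items are not reported here.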

Additional observations from a re-analysis of the deposited data

How the results depend on the processing

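No member was called over whole samples under any alternative, and 268 of 270 recomputed counts of called members remained at 0. The count went from 0 to 1 in Myeloid cells without Dram2 wt/wt replicate 3 (Bambi) and in Fibroblast against Fibroblast 2 without Dram2 wt/wt replicate 1 (Tgfb2), and the cause was not tested. The log2 fold changes of the 10 genes over whole samples, of Endothelial Ltbp2 and of Myeloid Bambi were recomputed 177 times in all, and 18 of those values changed sign, all over whole samples. For all members in cell types and sub-clusters, leaving out Dram2 ko/ko replicate 3 changed the sign of 20 of 133, among them 5 of 10 in RPE cells. Ltbp1 was 0.0016 by the edgeR quasi-likelihood test and 0.0093 by DESeq2, and Tgfbr3 was -0.074 with batch as a covariate. Leaving out 1 sample at a time moved Ltbp1 between -0.27 and 0.10, Tgfb1 between -0.13 and 0.045, Tgfbr1 between -0.15 and 0.065, Tgfb3 between -0.48 and 0.031, Tgfbr3 between -0.072 and 0.15, and Tgfb2 between -0.32 and 0.10. The replicate numbers did not pair the samples. Deviation correlations of same-numbered samples were 0.0054, -0.61 and 0.083, and no sample correlated best with its own number. With the replicate block 0 members were called in every type and sub-cluster tested, and Tgfb3 over whole samples was -0.18. Over all genes, calls depended on the tool and samples. Whole samples had 0 calls in voom-limma, 378 by DESeq2, 118 with batch as a covariate, 117 within batch 1, and 242 when replicate 1 of the Dram2 ko/ko samples was left out. Since Dram2 ko/ko replicate 3 was the only batch 2 sample, the batch covariate and leaving that sample out are not separate checks. The counts ran over the alternatives from 0 to 320 in Fibroblast and in Fibroblast proliferating, 0 to 168 in Fibroblast 2, 0 to 20 in RPE, 0 to 85 in Fibroblast-like, 0 to 13 in Endothelial, 0 to 21 in Pericyte, 2 to 83 in Myeloid, 0 to 301 in sub-cluster 1, 0 to 318 in sub-cluster 2, 0 to 178 in sub-cluster 3, 28 to 210 in sub-cluster 4, 0 to 71 in sub-cluster 5, 0 to 86 in sub-cluster 7 and 0 to 47 in Fibroblast against Fibroblast 2. Of 196 recomputed levels 9 moved by more than 1 SD. Scaled to UMIs outside mitochondrial genes, a choice made after seeing the data, Ltbp2 in sub-cluster 6 was 1591 CPM. By the mean over cells the highest Tgfbr2 type was Myeloid, at 77.7 CPM. Small sums limit the depth, with 84 Myeloid and 288 Endothelial cells in all.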

Other observations

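Other genes of the pathway also differed in level between the deposited types. They were chosen after their values were seen and are given as values with no test. Lrrc32, which holds latent TGF-beta on the cell surface, was at 372 ± 68.6 CPM in Fibroblast 2 and 82.7 ± 10.3 CPM in Fibroblast cells (SD, n = 6), with no overlap of samples. Nrros, the matching anchor of myeloid cells, was at 68.4 ± 21.6 CPM in Myeloid cells (n = 4) and 0.457 ± 0.184 CPM in Fibroblast cells. Itgb8, an integrin subunit that activates latent TGF-beta, was at 92.3 ± 54.3 CPM in Pericyte and 1.22 ± 0.481 CPM in Fibroblast cells.

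Endothelial cells held the co-receptor Eng at 1295 ± 311 CPM against 163.9 ± 13.9 CPM in Fibroblast and 17.2 ± 8.86 CPM in RPE cells. Acvrl1, the endothelial type I receptor, was at 345 ± 35.6 CPM in Endothelial, 143 ± 6.15 CPM in Fibroblast, 138 ± 12.9 CPM in Pericyte and 18.3 ± 7.25 CPM in RPE cells. Bmp6 was at 105 ± 45.9 CPM and the inhibitory SMAD gene Smad7 at 483 ± 88.0 CPM in Endothelial cells, against 1.42 ± 0.148 and 248 ± 12.0 CPM in Fibroblast cells. In RPE cells Gdf15 was at 236 ± 55.8 CPM and Bmp4 at 58.0 ± 11.3 CPM, against 34.6 ± 5.96 and 8.39 ± 1.76 CPM in Fibroblast cells. Fst, which binds activin, was at 385 ± 44.4 CPM in Fibroblast, 182 ± 12.1 CPM in Fibroblast 2 and 57.3 ± 28.0 CPM in RPE cells.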
